A study of Mus musculus with 4 samples.

Results

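Chromatin accessibility was examined at the genes of 12 families of chromatin regulators in mouse CD8+ T cells. The families were chosen by gene symbol from RefSeq protein-coding genes of build GRCm38: Setd and Kat (followed by a number), Kdm, Hdac and Sirt, Brd (followed by a number), Ing (followed by a number), Phf and Cbx, and Smarc, Arid and Chd (followed by a number). Prdm, Kmt2 and Eed genes were left out. The rule found 131 genes of 21900, and a peak counted for a gene when it lay within 1000 bases of either end of the gene span. By this rule 39 genes had 40 of the 3187 peaks in the deposited table.

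ATAC-seq, in which the Tn5 transposase inserts adapters into accessible DNA, was applied to CD8+ T cells isolated with magnetic beads from spleens of OTI:Cas9 mice. Cells of both groups were electroporated with Cas9 protein and a guide RNA: sgNTC in the libraries labelled Prdm12-wt, and sgPrdm12 in the libraries labelled Prdm12-ko. The series' design text calls the controls non-edited, whereas its treatment protocol gives both guides. Each group had 2 libraries, and replicate 1 of each belonged to batch 1 and replicate 2 of each to batch 2. The labels give no age for the mice and do not say if each replicate was a separate animal or culture; p-values thus measure the spread between libraries, which may be technical. Each library was a bulk preparation, so fewer cells with an open site cannot be told apart from less opening per cell. Reads in the listed peaks totalled 20427 to 58068 per library, and the lowest total was that of sgPrdm12 replicate 2. No peak lay within 1000 bases of an end of Prdm12, so the edit could not be followed. None of the 10 markers listed for CD8 T cells, such as Cd8a, Cd3e and Lck, had a peak analysed here, and the label was not checked further. Of the 28 markers listed for CD4, B, myeloid, NK and erythroid cells, Zbtb7b and Tfrc had one, with 0 to 13 reads per library. No other cell type is read from these peaks.

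Chromatin regulators act on nucleosomes in 4 broad ways. Writers such as the Setd methyltransferases and Kat acetyltransferases add marks to histones, and erasers such as the Kdm demethylases and the Hdac and Sirt deacylases remove them. Readers such as Brd, Ing, Phf and Cbx proteins bind modified histone tails, and the Smarc, Arid and Chd proteins belong mostly to complexes that slide or evict nucleosomes with energy from ATP. In CD8+ T cells such enzymes shape the change from naive to effector and memory states. PRDM12 belongs to a family with a domain related to the SET domain, and it is known to work with the histone methyltransferase EHMT2. The grouping here follows the symbols. Setd3 modifies actin, Phf5a is a splicing factor subunit, Hdac10 acts on polyamines, Sirt3 and Sirt4 are mitochondrial, and Phf8 is itself a demethylase. Arid4a and Arid4b are counted as remodellers by symbol but belong to the SIN3 corepressor complex.

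Most of the peaks that could be placed lay at promoters. Of the 39 genes with a peak, 33 matched the RefSeq promoter table of GRCm38.p6, which holds 250 bases before to 50 bases after each start. At all 33 the nearer gene end was the 5′ end. A promoter window of the same gene was overlapped by 28 of the 33 peaks (84.8%). Of 1662 other gene-end peaks, 87.6% overlapped a window of any gene they lay near, which is a wider rule. The 5 peaks outside a window belonged to Sirt4, Brd9, Smarcd2, Setd4 and Setd5. The peak centres of Setd5, Smarcd2 and Sirt4 lay far from the nearest listed start, at -28070.5, -5326 and -5172.5 bases (negative is before the start). The same peaks lay 87, 0 and 611 bases from the 5′ end of the gene span, so the listed start was not at that end. The windows of these genes still count in the motif shares below, although they are not at the peak. The promoters below belong to the tested gene with the highest count, Cbx5, and to those with the highest and lowest fold change, Ing4 and Brd2. They are written 5′ to 3′ on the strand of the gene, with motif matches in capitals.
Cbx5, heterochromatin protein, chr15:103239803-103240102, minus strand: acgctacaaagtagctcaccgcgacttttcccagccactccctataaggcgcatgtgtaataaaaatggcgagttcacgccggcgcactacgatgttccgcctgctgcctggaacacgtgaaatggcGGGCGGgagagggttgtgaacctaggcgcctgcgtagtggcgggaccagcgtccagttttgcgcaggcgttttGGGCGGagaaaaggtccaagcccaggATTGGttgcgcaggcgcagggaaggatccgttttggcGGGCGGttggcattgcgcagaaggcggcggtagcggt
Ing4, reader of an acetyltransferase complex, chr6:125039598-125039897, plus strand: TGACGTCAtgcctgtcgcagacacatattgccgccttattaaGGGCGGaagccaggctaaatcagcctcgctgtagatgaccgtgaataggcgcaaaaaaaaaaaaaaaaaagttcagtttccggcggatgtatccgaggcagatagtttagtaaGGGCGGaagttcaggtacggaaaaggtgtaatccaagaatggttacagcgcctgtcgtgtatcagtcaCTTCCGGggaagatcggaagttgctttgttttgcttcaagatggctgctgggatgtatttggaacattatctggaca
Brd2, double bromodomain protein, chr17:34122558-34122857, minus strand: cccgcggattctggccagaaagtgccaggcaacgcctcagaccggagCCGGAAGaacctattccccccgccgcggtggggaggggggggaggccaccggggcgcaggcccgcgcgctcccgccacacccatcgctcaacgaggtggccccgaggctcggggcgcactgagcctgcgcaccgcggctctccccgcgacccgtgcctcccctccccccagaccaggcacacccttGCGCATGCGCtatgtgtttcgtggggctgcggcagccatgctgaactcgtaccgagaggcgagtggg
The Cbx5 peak covered all 300 bases of its window, with 3 GC boxes (GGGCGG, the site of SP and KLF factors) and 1 CCAAT box. The Ing4 peak covered all 300 bases too, with 2 GC boxes, 1 ETS motif (CCGGAAG) and 1 CRE (TGACGTCA). The Brd2 peak covered 54 of 300 bases. Its ETS match 203 bases before the start and its NRF1 match 17 bases before the start lay outside the peak.

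Motifs were searched on both strands, so that capitals can show the reverse complement. GC boxes were found in 23 of 33 promoters (69.7%), against 46.2% of 21263 promoters of protein-coding genes and 74.1% of 2046 promoters at other gene-end peaks. The ETS motif was found in 8 promoters (24.2%), against 11.6% of all promoters and 25.9% of those at other gene-end peaks, and CCAAT in 18 (54.5%), against 38.2% and 46.1%. The CRE was found in 4, those of Cbx8, Ing3, Ing4 and Phf8 (12.1%), against 2.23% and 4.25%. NRF1 and YY1 (ATGGCGGC) matches were found in 1 promoter each (3.03%), against 1.33% of all promoters and 5.08% at other gene-end peaks for NRF1, and 3.02% and 7.04% for YY1. The RUNX motif (TGTGGT) was found in 4 (12.1%), against 15.0% and 10.1%, and the AP-1 motif (TGANTCA) in 2 (6.06%), against 6.99% and 3.23%. No matches overlapped in the 3 promoters shown. The median GC content was 65.0%, against 56.3% in all promoters and 62.7% at other gene-end peaks. The median number of CpG sites was 25, against 13 and 24. In 98 promoters of 71 family genes without a peak, these medians were 63.0% and 25.5. There GC boxes were found in 71.4%, the ETS motif in 10.2%, CCAAT in 32.7% and the CRE in 0%. NRF1 and YY1 were found in 3.06% each, RUNX in 14.3% and AP-1 in 6.12%. A match describes the letters and is not a site.

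A listed peak was found for 29.8% of the 131 genes, against 11.4% of all protein-coding genes. The share varied between families. Among writers, 4 of 10 Setd and 2 of 8 Kat genes had a peak. Among erasers the numbers were 8 of 18 Kdm, 2 of 7 Sirt and 1 of 11 Hdac genes. Among readers they were 4 of 5 Ing, 3 of 8 Cbx, 3 of 9 Brd and 6 of 22 Phf genes. Among remodellers they were 4 of 13 Smarc and 2 of 10 Arid genes, while none of the 10 Chd genes had one. The Chd4 gene, whose product is the ATPase of the NuRD complex, had a peak 1041 bases downstream of the gene, just outside the limit. That peak, which is not at the start of Chd4, held 7 and 28 reads with sgNTC and 14 and 11 with sgPrdm12. The farthest peak inside the limit was that of Sirt4, at 611 bases. Other genes left without a peak also had one just outside the limit, such as Kat6b at 1169 bases and Kat5 at 1318 bases. With limits of 500 and 2000 bases, 38 and 44 genes had a peak, and 47 did when the whole gene span was included. The family shares thus depend on the limit. A gene without a listed peak is not shown to be closed, since the table may not hold every accessible region.

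**Figure D1:**
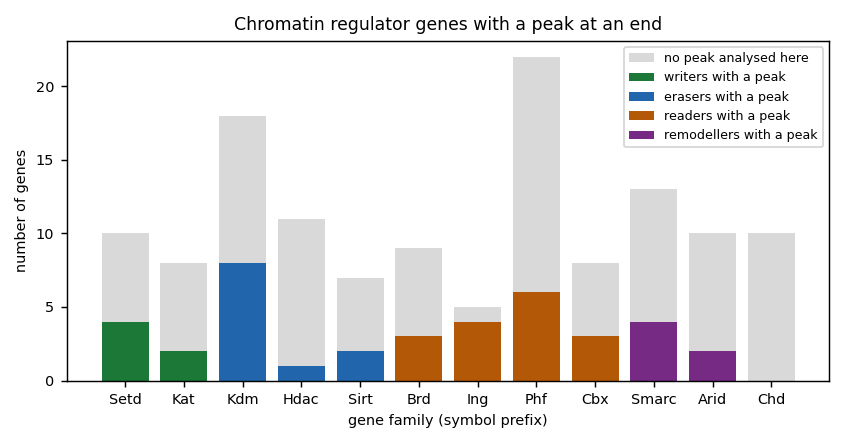
Number of genes in each of the 12 families (full bar) and number with a peak within 1000 bases of a gene end (coloured part, by class). The Ing family had peaks at 4 of 5 genes and the Chd family at 0 of 10.

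Every one of the 40 peaks had reads in all 4 libraries, as did 94.9% of the 1943 other gene-end peaks and 75.8% of all peaks. The median peak held 60 reads over the 4 libraries, against 43 at other gene-end peaks, and was 460 bases wide, against 417. Of the 40 peaks, 17 (42.5%) lay within 1000 bases of the end of another protein-coding gene, against 26.1% of other gene-end peaks. The accessibility of these 17 cannot be assigned to 1 gene. A shared peak could enter the set through any of its genes, so the rule itself raises the share. No trait of these families is read from the difference. The filter on low counts kept 26 of the 40 peaks (65.0%), against 48.1% of other gene-end peaks. The 26 tested peaks belonged to 26 genes.

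At none of the 26 tested peaks did a difference between sgPrdm12 and sgNTC cells pass the test. At an adjusted p of 0.05, 0 peaks were higher and 0 were lower, where 0% of the 1125 peaks tested in all passed (quasi-likelihood test of edgeR, p adjusted by Benjamini and Hochberg over all tested peaks). The adjusted p was 0.968 to 0.997, and 0 of the 26 reached an unadjusted p of 0.05, against 5.07% of all tested peaks. DESeq2's Wald test, run on all 40 peaks without a filter, called 0 at an adjusted p of 0.05 and 0 at an unadjusted p of 0.05, against 0% and 0.879% of 3186 peaks. The median log2 fold change of the 26 peaks was -0.02, against 0.02 over all tested peaks, and 12 of the 26 were above 0 (46.2%, against 52.1%). The median absolute log2 fold change was 0.18, against 0.27 for all tested peaks, and lay below the median standard error of 0.39.

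The intervals bound the changes that these libraries allow. The 95% interval of the log2 fold change lay within 4-fold at all 26 peaks, against 94% of all tested peaks, and within 2-fold at 14 (53.8%), against 31.5%. With DESeq2's estimates and standard errors, and errors taken as normal, the interval lay within 4-fold at all 26 as well (84.4% of all tested peaks). Within 2-fold it lay at only 3 of the 26, Cbx5, Phf5a and Phf12 (11.5%, against 3.47%), so the narrower bound depends on the tool. Tested members had higher counts than most tested peaks (the median member exceeded 64.0% of them). At the other 12 genes edgeR's interval also reached past 2-fold, so a change of that size is not excluded there.

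**Figure D2:**
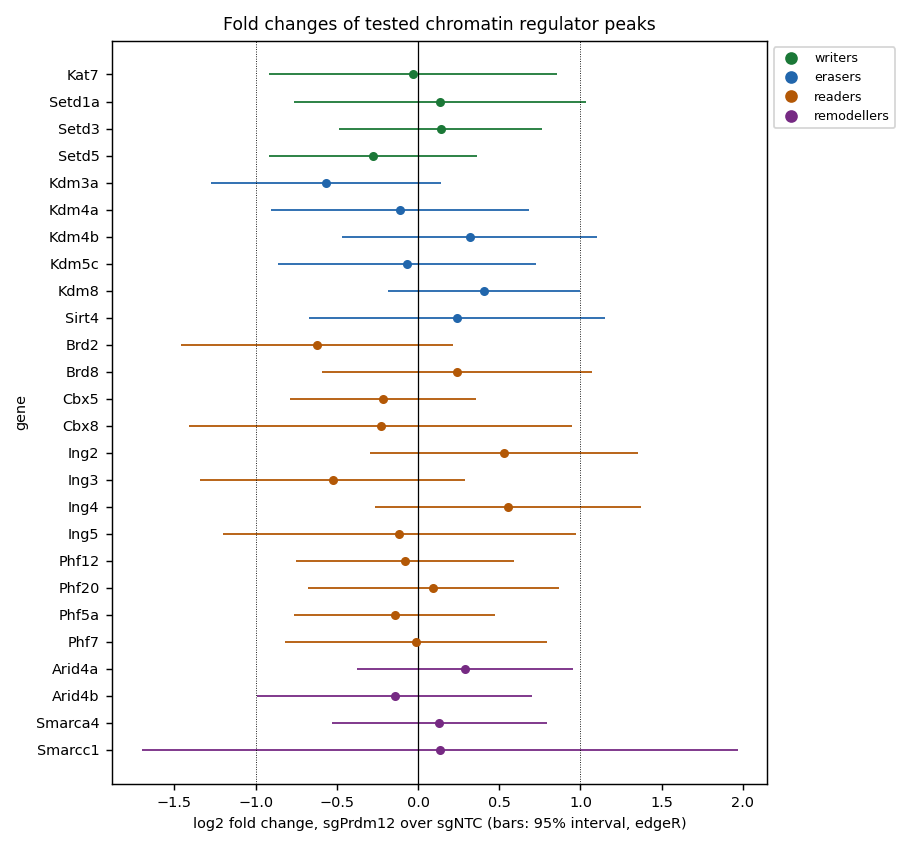
Fitted log2 fold change (sgPrdm12 over sgNTC) with its 95% interval at each of the 26 tested peaks, coloured by class; dotted lines mark 2-fold. All intervals include 0, and the widest is that of Smarcc1.

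Writers had 6 peaks, 4 of them tested, and 0 passed the test. Setd1a, a catalytic subunit of a complex that methylates histone H3 at promoters (chromosome 7, 127776659 to 127777282), held 17 and 30 reads with sgNTC and 25 and 4 with sgPrdm12. Its normalised read counts, scaled by TMM (trimmed mean of M values, which offsets differences in depth and composition) and given per 10000 reads in tested peaks, were 8.74 and 7.56 in sgNTC and 12.7 and 3.20 in sgPrdm12. The sgPrdm12 replicates stood on either side of both sgNTC replicates, and the log2 fold change was 0.14 ± 0.44 (SE), although the sgPrdm12 mean of 7.97 was below the sgNTC mean of 8.15; with batch as a term it was -0.059. Without sgPrdm12 replicate 1 the value turned to -1.29, and without sgPrdm12 replicate 2 it was 0.64.

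Setd3, the actin methyltransferase, shares its peak with Ccnk, a cyclin of transcription (chromosome 12, 108179079 to 108180002). It had normalised counts of 11.8 and 10.1 in sgNTC and 12.2 and 11.2 in sgPrdm12, overlapping groups that gave a log2 fold change of 0.14 ± 0.30. Setd5, a SET domain protein known from neurodevelopmental disorders (chromosome 6, 113076554 to 113077175), had 11.8 and 11.6 in sgNTC against 10.2 and 8.80 in sgPrdm12. Both sgPrdm12 libraries were lower there, with a log2 fold change of -0.28 ± 0.31. Kat7, an acetyltransferase of histone H3 (chromosome 11, 95309777 to 95310431), had 11.3 and 5.04 against 6.62 and 8.00, so its sgNTC libraries enclosed both sgPrdm12 libraries, and its log2 fold change was -0.03 ± 0.43. The edgeR adjusted p of these 4 genes was 0.997 each.

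Erasers had 12 peaks, 6 of them tested, and 0 passed the test. Kdm3a, a demethylase of lysine in histone H3 (chromosome 6, 71633113 to 71633695), had 27 and 44 reads in sgNTC and 12 and 14 in sgPrdm12. Normalised, these were 13.9 and 11.1 against 6.11 and 11.2, so sgPrdm12 replicate 1 was low and replicate 2 lay between the sgNTC libraries. The log2 fold change was -0.57 ± 0.34 with the smallest unadjusted p of the 26, 0.110 by edgeR (adjusted p = 0.968). The log2 ratio was -1.12 in batch 1 and 0.01 in batch 2, and the fitted value was -0.09 without sgPrdm12 replicate 1 and -1.01 without sgPrdm12 replicate 2.

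Kdm8, a JmjC domain hydroxylase (chromosome 7, 125444415 to 125445294), had 20 and 47 reads in sgNTC and 29 and 19 in sgPrdm12. Normalised, these were 10.3 and 11.8 against 14.8 and 15.2, or 11.1 ± 1.10 and 15.0 ± 0.30 (SD, n = 2 libraries each). Both sgPrdm12 libraries were higher in both batches, by a log2 ratio of 0.50 and 0.35. The fitted log2 fold change of 0.41 ± 0.29 had an interval of -0.19 to 1.00 (edgeR adjusted p = 0.968).

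The other Kdm genes with tested peaks lay closer to 0. Kdm4b, a demethylase of histone H3 (chromosome 17, 56325598 to 56326050), had normalised counts of 4.63 and 7.56 in sgNTC and 7.64 and 8.80 in sgPrdm12, giving a log2 fold change of 0.32 ± 0.38. Its relative Kdm4a (chromosome 4, 118179517 to 118180054) had overlapping groups and -0.11 ± 0.39. Kdm5c, an X-linked demethylase of promoter methylation on histone H3 (152232888 to 152233489), had -0.07 ± 0.39. The edgeR adjusted p of all 3 was 0.997.

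Among deacylases, the mitochondrial sirtuin Sirt4 (chromosome 5, 115489286 to 115489653) was the tested gene. Its normalised counts were 4.63 and 6.55 in sgNTC and 4.08 and 11.2 in sgPrdm12, with sgPrdm12 replicate 2 high, and its log2 fold change of 0.24 ± 0.44 (edgeR adjusted p = 0.997) turned to -0.56 without that library. Sirt3, a mitochondrial deacetylase whose peak is shared with the proteasome gene Psmd13, was below the filter with 10 and 8 reads in sgNTC and 2 and 1 in sgPrdm12. The authors' deposited table lists -1.74 (log2, standard error 1.54) for it, the most negative of the 40 peaks. Hdac10, whose peak is shared with Tubgcp6, had 1 and 15 reads in sgNTC and 9 and 9 in sgPrdm12. The authors' deposited table lists 1.56 (log2, standard error 1.23) for it, the most positive value, and sgNTC replicate 1 was the low library.

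Readers had 16 peaks, 12 of them tested, and 0 passed the test. The 4 Ing genes, whose proteins bind methylated histone H3 and link it to acetyltransferase or deacetylase complexes, had fitted values on both sides of 0. Ing4 (chromosome 6, 125039439 to 125040043) had 9 and 33 reads in sgNTC and 22 and 11 in sgPrdm12, or normalised counts of 4.63 and 8.31 against 11.2 and 8.80. Both sgPrdm12 libraries were above both sgNTC libraries, replicate 2 by little, and the log2 fold change of 0.55 ± 0.40 was the highest of the 26 (edgeR adjusted p = 0.968). The log2 ratio was 1.19 in batch 1 and 0.08 in batch 2. Without sgNTC replicate 1 the fitted value was 0.29, below Smarcc1 (1.11), Ing2 (0.53) and others. Without sgNTC replicate 2 it was 1.12 and still the highest. Without sgPrdm12 replicate 1 it was 0.35, below Sirt4 (0.94), Ing2 (0.93) and others. Without sgPrdm12 replicate 2 it was 0.65, below Smarcc1 (0.72).

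Ing2, a subunit of a histone deacetylase complex (chromosome 8, 47674961 to 47675368), had normalised counts of 6.69 and 6.80 in sgNTC and 7.64 and 12.8 in sgPrdm12. The sgPrdm12 libraries were higher, mainly replicate 2, with a log2 fold change of 0.53 ± 0.40 that was 0.15 without that library. Ing3, a subunit of the TIP60 acetyltransferase complex (chromosome 6, 21949524 to 21949939), had 8.74 and 7.05 in sgNTC against 4.58 and 6.40 in sgPrdm12. There both sgPrdm12 libraries were lower, with a log2 fold change of -0.53 ± 0.40. Ing5, found in the same kinds of acetyltransferase complex as Ing4 (chromosome 1, 93803925 to 93804209), had 8.74 and 4.03 against 4.08 and 7.20, and -0.12 ± 0.53. The edgeR adjusted p was 0.969 for Ing2 and Ing3 and 0.997 for Ing5.

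Brd2, a BET family protein that binds acetylated histones (chromosome 17, 34122348 to 34122611), had 21 and 35 reads in sgNTC and 13 and 7 in sgPrdm12. Normalised, these were 10.8 and 8.82 against 6.62 and 5.60, or 9.81 ± 1.41 and 6.11 ± 0.72 (SD, n = 2 each). Both sgPrdm12 libraries were lower in both batches, by a log2 ratio of -0.67 and -0.61. The fitted value, -0.62 ± 0.41, was the lowest of the 26, with an interval of -1.46 to 0.21 (edgeR adjusted p = 0.968). Brd2 stayed the lowest without either sgNTC library. Without sgPrdm12 replicate 1 its value was -0.75, and Smarcc1 (-1.30), Setd1a (-1.29) and Cbx8 (-1.13) were lower. Without sgPrdm12 replicate 2 its value was -0.56, and Kdm3a (-1.01) and others were lower. Brd8, a subunit of the TIP60 complex whose peak is shared with Kif20a (chromosome 18, 34624374 to 34624839), had 0.24 ± 0.40.

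Cbx5, which encodes a heterochromatin protein, had the highest mean of the 26 (chromosome 15, 103239611 to 103240409), shared with Hnrnpa1. Its normalised counts were 23.1 and 19.9 in sgNTC and 19.9 and 16.0 in sgPrdm12, where sgNTC replicate 2 and sgPrdm12 replicate 1 were nearly equal. The log2 fold change was -0.21 ± 0.28 (edgeR adjusted p = 0.997). Cbx8, a Polycomb chromobox protein (chromosome 11, 119041040 to 119041548), had 10 and 22 reads against 12 and 3, so only sgPrdm12 replicate 2 was low, and its log2 fold change was -0.23 ± 0.57. Cbx3, a heterochromatin protein whose peak is shared with Hnrnpa2b1, was below the filter with 9 and 16 reads in sgNTC and 4 and 4 in sgPrdm12.

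The Phf genes are named for their PHD finger. The second highest peak was that of Phf5a, the splicing factor subunit (chromosome 15, 81871735 to 81872686), with normalised counts of 14.4 and 14.1 in sgNTC and 10.7 and 16.0 in sgPrdm12. The sgPrdm12 libraries lay on either side of the sgNTC libraries, and the log2 fold change was -0.14 ± 0.30. Phf12, part of a SIN3 corepressor complex (chromosome 11, 77982135 to 77982929), had 7.72 and 14.9 in sgNTC against 11.2 and 12.0 in sgPrdm12. Its fitted value was -0.08 ± 0.33, although the sgPrdm12 mean was slightly the higher one. Phf20, a subunit of an acetyltransferase complex (chromosome 2, 156196589 to 156197269), was at 0.09 ± 0.38. The peak of Phf7, a histone ubiquitin ligase known from the testis, is shared with the deubiquitinase gene Bap1 (chromosome 14, 31251144 to 31251796) and was at -0.01 ± 0.39. All 4 had an edgeR adjusted p of 0.997.

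Remodellers had 6 peaks, 4 of them tested, and 0 passed the test. Smarca4, an ATPase of SWI/SNF complexes (chromosome 9, 21615718 to 21616428), had 18 and 44 reads in sgNTC and 27 and 10 in sgPrdm12. Normalised, these were 9.26 and 11.1 against 13.8 and 8.00, so the sgPrdm12 libraries lay on either side of sgNTC, and the log2 fold change was 0.13 ± 0.32. Smarcc1, a core subunit of the same complexes (chromosome 9, 110132059 to 110132362), had 7.20 and 2.01 in sgNTC against 6.62 and 1.60 in sgPrdm12. Both libraries of batch 1 were high and both of batch 2 were low. The fitted log2 fold change was 0.13 ± 0.89, although the sgPrdm12 mean was the lower one, and with batch as a term it was -0.18.

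Arid4a and Arid4b encode related subunits of the SIN3 corepressor complex. Arid4a (chromosome 12, 71015391 to 71015986) had normalised counts of 8.74 and 9.32 in sgNTC and 12.2 and 9.60 in sgPrdm12, and a log2 fold change of 0.29 ± 0.32. Arid4b, whose peak is shared with Ggps1 (chromosome 13, 14063245 to 14063806), had 5.66 and 10.3 against 8.66 and 6.40, and -0.14 ± 0.41. The sgPrdm12 libraries were above both sgNTC libraries at Arid4a and between them at Arid4b. The edgeR adjusted p of the 4 remodeller genes was 0.997.

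**Figure D3:**
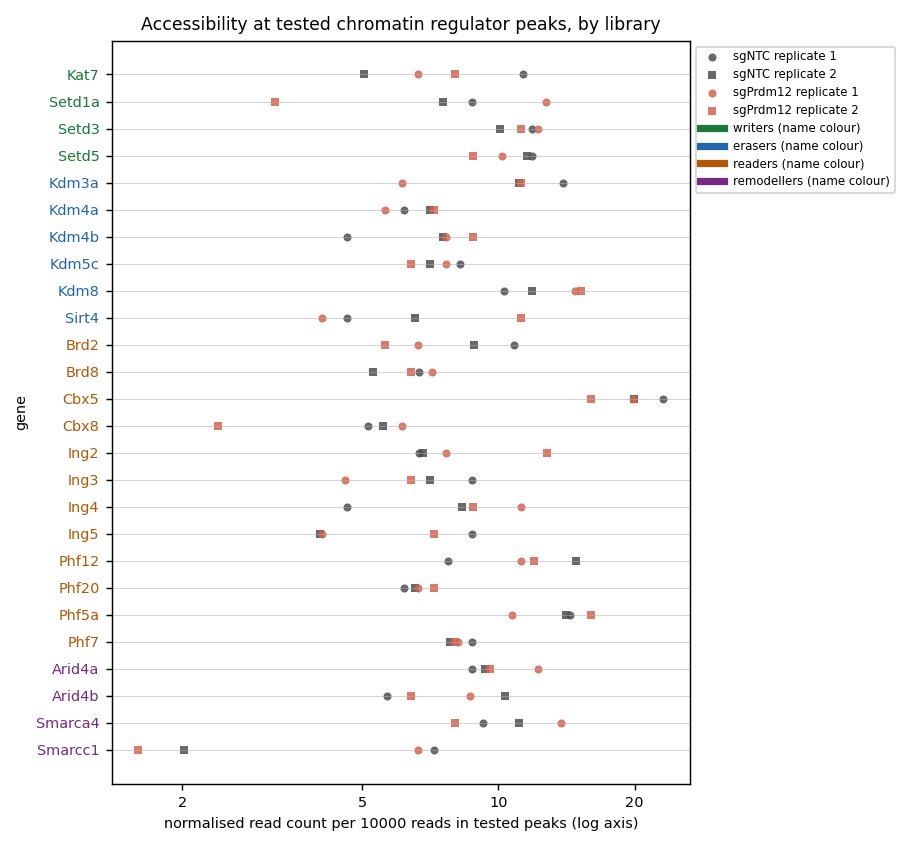
Normalised read count per 10000 reads in tested peaks (log axis) in each library at the 26 tested peaks; circles are batch 1, squares batch 2, grey sgNTC and red sgPrdm12, and the colour of a gene name gives its class. Cbx5 has the highest mean, level with Phf5a in sgPrdm12 replicate 2, and the groups overlap at 16 genes.

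Across the 26 genes, both sgPrdm12 libraries lay above both sgNTC libraries at 6 (Kdm4b, Kdm8, Ing2, Ing4, Phf20 and Arid4a), where 16.4% of all tested peaks did so. They lay below at 4 (Setd5, Brd2, Cbx5 and Ing3), where 18% did so, and the groups overlapped at the other 16. Some of these separations were very small. The normalised counts of sgPrdm12 replicate 1 and sgNTC replicate 2 were 7.64 and 7.56 at Kdm4b, 6.62 and 6.55 at Phf20, and 19.87 and 19.90 at Cbx5. The within-batch log2 ratio, taken with 0.5 added to each normalised count, was above 0 in both batches at 8 genes (30.8%, against 25.2% of all tested peaks) and below 0 in both at 6 (23.1%, against 24.3%). It changed sign between batches at the other 12. These shares are near those of all tested peaks.

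**Figure D4:**
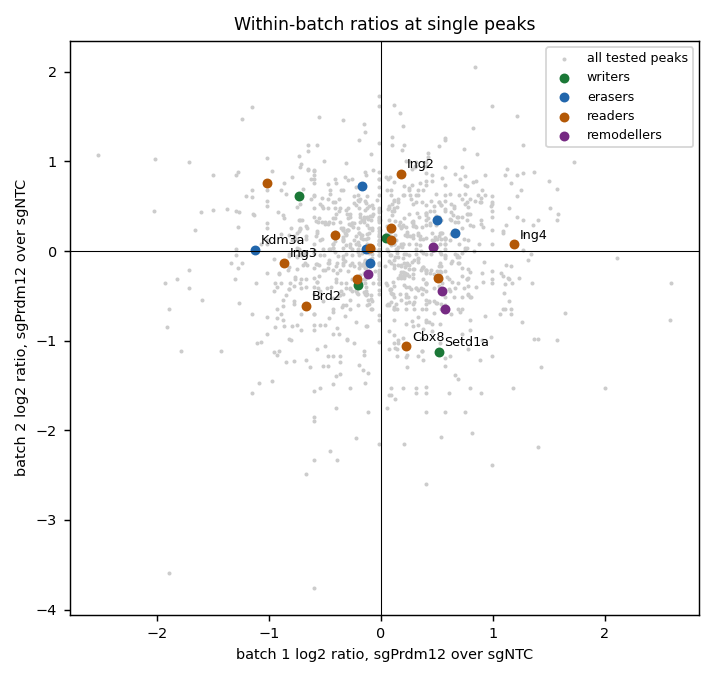
Log2 ratio of sgPrdm12 over sgNTC in batch 1 (horizontal) and batch 2 (vertical), 1 library per group and batch, for 1125 tested peaks (grey) and the 26 regulator peaks (coloured by class). Brd2 is below 0 in both batches, and Setd1a and Cbx8 are above 0 in batch 1 and below 0 in batch 2.

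The 14 peaks below the filter held 8 to 45 reads each over the 4 libraries. Beside Sirt3, Hdac10 and Cbx3 they belonged to Kdm1b, Kdm4d, Kdm5a (2 peaks), Brd9, Phf1, Phf8, Smarcad1, Smarcd2, Kat14 and Setd4. The highest was 1 of the Kdm5a peaks, at a demethylase gene of promoter methylation on histone H3 (chromosome 6, 120363800 to 120364335), where sgNTC libraries held 4 and 27 reads and sgPrdm12 libraries 7 and 7. Kdm4d, whose peak is shared with Cwc15, had 6 and 17 against 9 and 6, and Phf1, a Polycomb partner whose peak is shared with Kifc5b, had 5 and 18 against 9 and 6. Of every 10000 reads in all peaks, the 14 together held 25.4 and 30.3 in sgNTC and 30.6 and 29.9 in sgPrdm12, so the groups overlapped. From the authors' deposited table, with errors taken as normal, the 95% interval excluded 0 at 0 of the 40 peaks, where 0.0314% of all 3187 peaks did so. The median log2 value in the authors' deposited table was -0.16 over the 40 peaks, -0.21 over the other gene-end peaks and -0.14 over all peaks.

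Summed, the 40 peaks held 1.84% of reads (95% Wilson interval 1.69 to 2.00) in sgNTC replicate 1 and 1.86% (1.75 to 1.97) in replicate 2. The sgPrdm12 shares were 1.88% (1.73 to 2.04) in replicate 1 and 1.68% (1.51 to 1.86) in replicate 2. These intervals reflect counting error alone and treat reads as independent. Reads without molecular identifiers may not be independent molecules, so the intervals may be too narrow. The means were 1.85% ± 0.014 and 1.78% ± 0.14 (SD, n = 2), and their difference of -0.067 percentage points was smaller than the spread of the sgPrdm12 libraries. It was 0.043 in batch 1 and -0.18 in batch 2, so its direction differed between batches. The low library, sgPrdm12 replicate 2, also had the lowest share of reads at gene ends, 64.9% against 70.0% to 74.3% in the others. As a share of reads at gene ends the 40 peaks took 2.62% and 2.50% in sgNTC and 2.56% and 2.59% in sgPrdm12, and there the groups overlapped with no low library.

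By class, the summed level of the 16 reader peaks was 82.1 and 82.5 in sgNTC and 76.8 and 73.9 in sgPrdm12, of every 10000 reads in all peaks. Both sgPrdm12 libraries were lower, with a difference of -5.31 in batch 1 and -8.57 in batch 2. The reader families differed: the difference of group means was -5.13 for the 3 Cbx peaks, -2.01 for Brd, -1.17 for Phf and 1.37 for Ing. Most of the reader difference thus came from Cbx, where the Cbx5 and Cbx3 peaks are shared with Hnrnpa1 and Hnrnpa2b1. Per 10000 reads at gene ends the readers had 117 and 111 in sgNTC and 104 and 114 in sgPrdm12, so the groups overlapped on that scale. Writers had 32.3 and 25.7 in sgNTC and 35.5 and 22.0 in sgPrdm12 per 10000 reads in all peaks. Erasers had 44.2 and 49.8 against 44.1 and 52.4, and remodellers 25.0 and 27.7 against 31.7 and 19.6. In these 3 classes the groups overlapped on both scales. For such sums the smallest p that an exact two-sided permutation test over 4 libraries allows is 0.333, so none was tested.

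**Figure D5:**
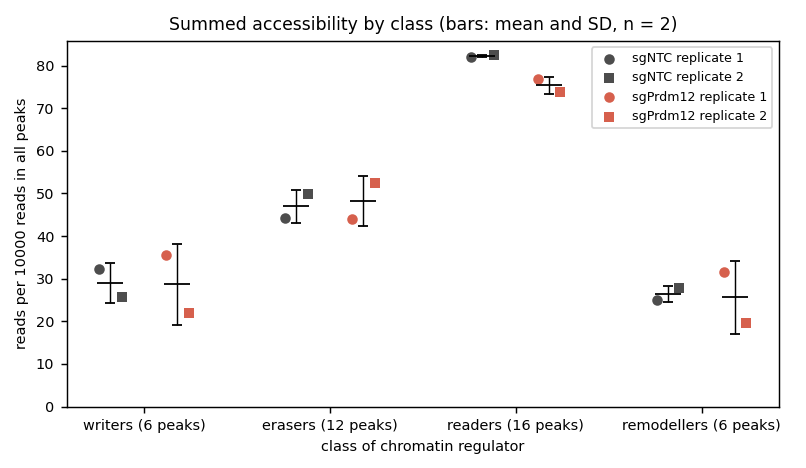
Summed reads of each class per 10000 reads in all listed peaks, by library (points), with the mean and SD of each group (bars, n = 2). The readers lie at 82.1 and 82.5 in sgNTC and at 76.8 and 73.9 in sgPrdm12, and the groups overlap in the other 3 classes.

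Other chromatin genes outside the 12 families were listed for comparison, among them subunits of INO80, NuRD, SIN3, SAGA and MLL complexes, arginine methyltransferases and histone chaperones. Of 149 such genes, 48 had a peak (32.2%); for 22 it was tested, and by edgeR 0 were higher and 0 were lower, where 0% of all tested peaks passed. The peak of Bap1 is the one shared with Phf7. The median log2 fold change was 0.03, with 11 above and 11 below 0. At an unadjusted p of 0.05 edgeR returned 2 of the 22, where 5.07% of all tested peaks did so: Mbtd1 of the TIP60 complex with 0.90 ± 0.43 and the arginine methyltransferase gene Prmt1 with -0.86 ± 0.40 (edgeR adjusted p = 0.927 for both). The partner genes Ehmt1 and Ehmt2 had no peak analysed here.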

How the data were processed

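ATAC-seq reads were counted in 1 set of peaks for 4 libraries, 2 per group. The authors deposited whole-number read counts for each peak, taken as raw. The authors' deposited log2 means per group, log2 difference and standard error are scaled in a way the file header does not state. Per the submitters' processing notes, build GRCm38, Bowtie2, MACS2, cutadapt, Picard, ChIPseeker, HOMER and DiffBind were used. The sources used here do not say what each tool did or whether reads were pooled to call peaks.

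The counts were tested with edgeR 4.0.16 (R 4.3.3): filterByExpr with a minimum count of 10, TMM scaling, a robust quasi-likelihood fit on group alone, and Benjamini-Hochberg adjustment over the 1125 peaks kept. A standard error is the fold change (log2) over the root of F. DESeq2 1.42.0, other scalings and filters, each library left out, and batch as a replicate block were alternatives. The labels give replicate numbers and batches together, so libraries pair by batch; same-numbered deviations correlated at 0.06 over 1125 peaks.

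Genes came from a RefSeq table of GRCm38.p6. Every gene with a tested peak was named, counts per library were given for the 8 highest and the 3 highest and 3 lowest fold changes, and the 5 highest untested peaks were named. Other values per library were added for single genes after they were seen. The genes, lists and motifs were chosen with earlier results of these data known. The neighbour of 1 shared peak is not reported here. Reads outside listed peaks were not used here, so the full depth is unknown.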

Additional observations from a re-analysis of the deposited data

How the results depend on the processing

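Under the 10 alternative fits 0 of the regulator peaks and 0 of the other chromatin peaks passed the adjusted threshold. Over all peaks the count was 0 under each of them except without sgPrdm12 replicate 1, where it was 1 (at Rmnd1, range 0 to 1 when a library was left out). At an unadjusted p of 0.05 the count over all peaks was 57, and it was 109 with no filter, 105 with a minimum count of 5, 28 by DESeq2, 47 with the replicate block, and 32, 33, 90 and 78 without sgNTC replicates 1 and 2 and sgPrdm12 replicates 1 and 2. The replicate block changed no call. Of the regulator peaks tested, 0 reached an unadjusted p of 0.05, except without sgPrdm12 replicate 2, where 1 did (Kdm3a, -1.01). The smallest adjusted p of these genes under any alternative was 0.59. The median log2 fold change of the tested genes was -0.10 with scaling to total reads, 0.031 over peaks with no other gene end within 1000 bases (an alternative chosen after seeing the data, which kept 23 genes with a peak), and -0.0093 to 0.058 when a library was left out. The summed level was 4.34 reads per 10000 higher in batch 1 and changed by -17.7 in batch 2, against -6.70 over both.

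At 12 of 26 genes the sign of the log2 fold change was the same under the alternatives run; at 14 it turned, the largest main value among these being 0.24 in size. It became 0.064 for Phf12, -0.059 for Setd1a and -0.18 for Smarcc1 with the replicate block, 0.018 for Phf12 and -0.035 for Smarcc1 by DESeq2, and 0.0048 for Phf7 with a minimum count of 5. Leaving out a library gave ranges for Arid4b from -0.42 to 0.44, Cbx8 from -1.13 to 0.15, Ing5 from -0.70 to 0.43, Kat7 from -0.65 to 0.51, Kdm4a from -0.30 to 0.11, Kdm5c from -0.21 to 0.016, Phf12 from -0.36 to 0.58, Phf5a from -0.44 to 0.19, Phf7 from -0.11 to 0.050, Setd1a from -1.29 to 0.64, Setd3 from -0.0050 to 0.23, Sirt4 from -0.56 to 0.94, Smarca4 from -0.36 to 0.37 and Smarcc1 from -1.30 to 1.11. The cause was not tested. With a library left out, the lone library is assumed to vary like the other group. An interval within 2-fold, found at 14 genes by edgeR, was found at 3 by DESeq2 (a comparison added after seeing the data).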
